A study of Mus musculus with 3 samples.

Results

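The 30 genes described here encode enzymes of sterol synthesis, enzymes of fatty acid synthesis and the regulators of both. They were chosen by name from knowledge of the pathways, and all 30 were found by gene identifier among the 50600 genes of the deposited tables. The study sequenced RNA, labelled total RNA, of primary cells of the mouse strain C57BL/6NJ, labelled T-helper 1, in 1 group of 3 libraries labelled as biological replicates 1, 2 and 3. The labels give separate biosamples that share a donor identifier, and age and developmental stage as unknown. The names in the file headers carry a time of 0 hours, and the protocols the labels link to are named for CD4 T cell differentiation and for polyadenylated RNA libraries. The libraries analysed here are of 1 condition, so comparisons were made between genes within a library and between the 3 libraries. The p-values compare no conditions. Those of the between-library test set the 3 libraries together against counting error.

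Sterols are built from acetyl-CoA through mevalonate, farnesyl diphosphate and squalene, and fatty acids from acetyl-CoA through malonyl-CoA. Both routes are switched on by the SREBP transcription factors, which the escort protein SCAP carries from the endoplasmic reticulum to the Golgi for cleavage when sterols are scarce, while INSIG proteins hold SCAP back when sterols are plentiful. Resting T cells keep the routes low, and activated T cells raise them to make membrane for growth and division.

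The libraries held 2510319 to 4305077 counts, with replicate 3 the smallest. Genes whose exons overlap exons of an opposite-strand gene took 63.1%, 53.8% and 76.5% of the counts of replicates 1, 2 and 3, and replicate 3 stood apart in this. Fragments were counted when the first read lay on the gene's strand. The sources used here do not state the kit's read orientation, and whether the counts come from the named transcripts or from the other strand was not tested. T cell markers were abundant, with 10 of 10 at 1 TPM (counts per base of gene length, scaled to the same total in each library) or more in every library and a summed level of 1150 to 3921 TPM. Of 8 Th1 markers 3 reached 1 TPM in every library, and Cxcr3, Tbx21 and Ifng had at most 3 counts in any library. Hepatocyte markers, fixed because liver is a main site of lipid synthesis, were at 0 counts for 4 of 4 genes. Adipocyte markers summed to 0 to 0.998 TPM and fibroblast markers to 0 to 0.0809 TPM. Of 6 B cell markers only Cd79a (43.7 ± 9.14 TPM, SD, n = 3) and of 6 myeloid markers only Csf1r (81.1 ± 14.6 TPM, with exon overlap) reached 1 TPM in every library, and Igkc, Pax5 and Ms4a1 as well as Adgre1 and Cd14 had 0 counts.

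The first question was at what level each step of the 2 routes was present. The genes were detected across both routes, at modest levels and over a wide range. Of the 30 genes, 24 reached 1 TPM in all 3 libraries, where 41.6% of 21764 protein-coding genes did. In bulk RNA, fewer cells that express a gene and less RNA per cell cannot be told apart. The median gene of the 30 had a mean of 7.36 TPM. Over all protein-coding genes, detected or not, the median was 0.603 TPM. It was 16.5 TPM over the 10662 genes that passed the filter on low counts, which 5 of the 30 did not pass. Of the 30, 6 lay above the value of 16.5 TPM. Mvd, Acly, Srebf2, Elovl5, Srebf1 and Fdft1 were these 6. Scd1 and Idi1 lay at the other end, below 1 TPM. The 30 genes held 2922, 4490 and 1426 counts in replicates 1, 2 and 3, of which the 5 highest genes in each library took 56.9%, 53.6% and 64.0%.

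**Figure D1:**
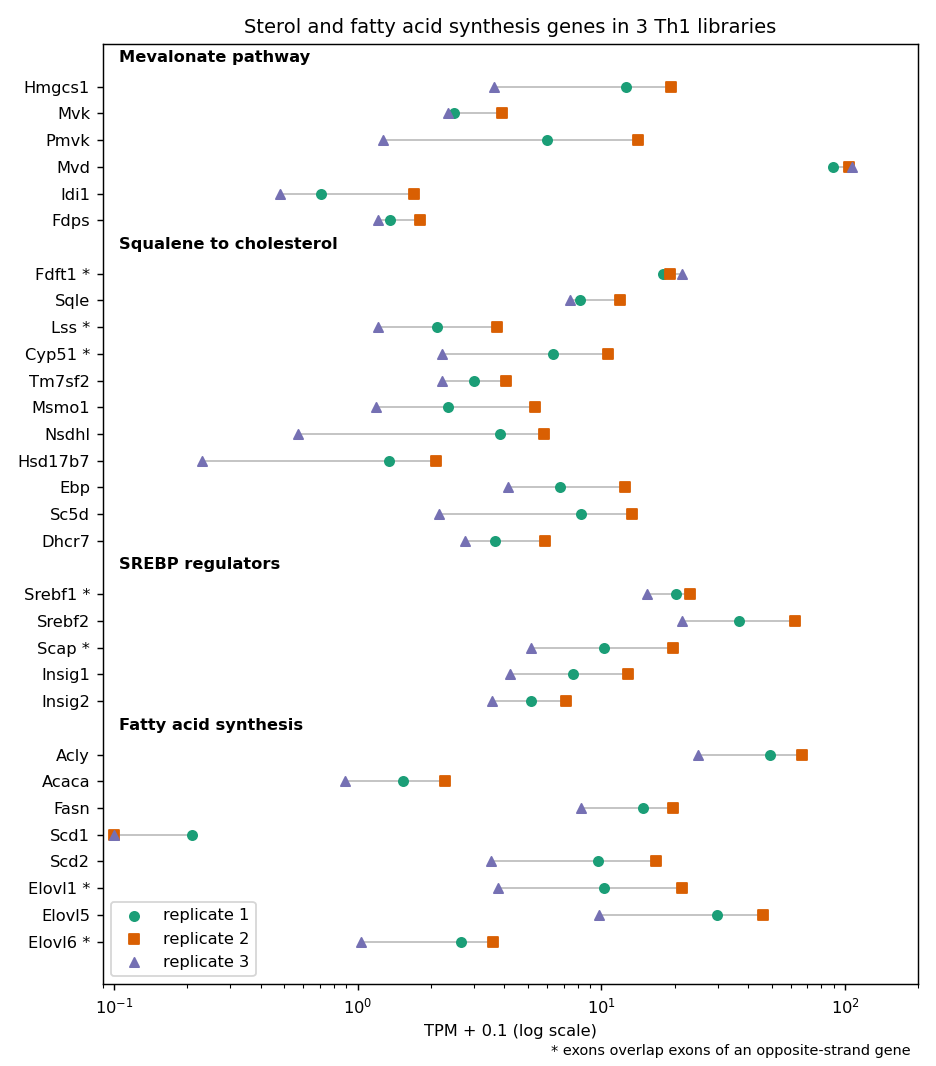
Level of each gene in each library, as TPM + 0.1 on a log axis, in 4 groups by role; each symbol is 1 library and the grey line spans the 3. In 27 of 30 genes replicate 2 is highest and replicate 3 lowest, while Mvd and Fdft1 are highest in replicate 3 and Scd1 has its single count in replicate 1.

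The mevalonate pathway makes the isoprenoid units of sterols. Hmgcs1, the cytosolic HMG-CoA synthase that opens the pathway (chromosome 13, 119690462 to 119708086), had 76, 122 and 17 counts in replicates 1, 2 and 3, or 12.5, 19.3 and 3.52 TPM. Replicate 3 was low here and replicates 1 and 2 lay closer together. Mvk, the mevalonate kinase, followed at 2.82 ± 0.868 TPM and Pmvk, the phosphomevalonate kinase, at 7.02 ± 6.49 TPM (n = 3). Pmvk varied most among the genes with over 10 counts in total, from 3 counts in replicate 3 to 47 in replicate 2.

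Mvd, the mevalonate diphosphate decarboxylase (chromosome 8, 122433601 to 122443422, minus strand), was the highest of the 30 genes in each library. It had 313, 378 and 295 counts, or 89.4, 103.8 and 106.2 TPM, a nearly flat profile with a coefficient of variation of 9.07%. Over the tested genes the median coefficient was 43.9%. Gm20735, on the same strand and within 5 kb of Mvd, was also nearly flat with 133, 126 and 105 counts, while Cyba on its other side had 242, 355 and 109. The single opposite-strand gene within 5 kb of Mvd, Gm20388, spans the locus from 119910841 to 124345722 and had 0 counts. The part of these neighbours in the Mvd value was not tested.

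The last steps of the mevalonate route were low in counts and in TPM. Idi1, the isopentenyl diphosphate isomerase, had 4, 11 and 2 counts (0.863 ± 0.649 TPM). Fdps, the farnesyl diphosphate synthase, had 10, 14 and 7 counts (1.36 ± 0.304 TPM). Near-identical annotated copies (at least 97% identity over 100 bases or more, at another locus) cover 76.8% of the longest Fdps transcript and 33.3% of that of Idi1. Fdps also shares 1124 exonic bases with Gm43738 on its own strand. The TPM of Fdps was taken over 4208 exonic bases, where its longest transcript has 1382, so its level depends on the length used. The counting command shows no option for multi-mapping fragments, so the levels of these 2 genes are uncertain. The copies that have a row in the tables had 0 counts.

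From squalene onward, Fdft1, the squalene synthase (chromosome 14, 63145153 to 63177793, minus strand), was the highest. It had 96, 107 and 91 counts, or 17.8, 19.1 and 21.3 TPM, again nearly flat with a coefficient of variation of 9.02%. Its exons share 767 bases with Ctsb, a lysosomal protease gene on the plus strand that had 157, 277 and 59 counts, and copies at another locus cover 33.7% of its longest transcript. Sqle, the squalene epoxidase and a rate-controlling step, had 84, 129 and 61 counts (9.09 ± 2.43 TPM), and its libraries differed less than those of most of the 30 genes. Sc5d, the sterol C5-desaturase, had 75, 127 and 15 counts (7.86 ± 5.64 TPM), with replicate 3 far below the others. Ebp, the sterol isomerase, stood at 7.70 ± 4.25 TPM and Cyp51, the lanosterol demethylase, at 6.30 ± 4.199 TPM.

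The other cholesterol steps lay lower. Dhcr7, which makes cholesterol from its immediate precursor, stood at 3.999 ± 1.62 TPM. The sterol dehydrogenase gene Nsdhl stood at 3.31 ± 2.65 TPM, with 2 counts in replicate 3. Tm7sf2, a sterol reductase gene, was at 2.99 ± 0.925 TPM and shares 532 exonic bases with Vps51 on the same strand. Msmo1, the methylsterol monooxygenase, was at 2.86 ± 2.14 TPM and Hsd17b7 at 1.13 ± 0.940 TPM with 12, 20 and 1 counts. Lss, the lanosterol synthase, had 41, 77 and 18 counts over 10787 bases (2.26 ± 1.28 TPM). On the strand opposite Lss, 4930483K19Rik, with 381 shared bases, had 207, 164 and 177 counts over 1237 bases, more than Lss in every library.

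Among the regulators, Srebf2, the SREBP gene best known for sterol genes (chromosome 15, 82147266 to 82205376, plus strand), was the highest with 344, 606 and 159 counts, or 36.6, 62.0 and 21.3 TPM. Srebf1, whose products favour fatty acid genes, had 214, 255 and 129 counts, or 20.2, 23.1 and 15.3 TPM. The libraries of Srebf1 lay closer together, and in each one Srebf1 was below Srebf2. Exons of Srebf1 share 109 bases with Rai1 on the other strand. Scap had 142, 285 and 56 counts (11.6 ± 7.36 TPM). Opposite it, 5830462I19Rik shares 985 bases and had 1755, 1440 and 1563 counts, more than Scap in every library. Insig1 stood at 8.13 ± 4.33 TPM and Insig2 at 5.19 ± 1.80 TPM.

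In fatty acid synthesis, Acly, the ATP citrate lyase that supplies cytosolic acetyl-CoA (chromosome 11, 100476353 to 100528000), led with 488, 687 and 195 counts, or 49.1, 66.4 and 24.7 TPM. Fasn, the fatty acid synthase, had 304, 418 and 134 counts, or 14.8, 19.5 and 8.19 TPM. Both were lowest in replicate 3. Acaca, the acetyl-CoA carboxylase that makes malonyl-CoA, was low at 1.47 ± 0.700 TPM with 46, 73 and 20 counts over 17074 exonic bases. A copy at another locus, Gm5182, covers 64.3% of its longest transcript, so this level is uncertain.

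The desaturases and elongases split by paralog. Scd2, a stearoyl-CoA desaturase, had 98, 178 and 28 counts (9.88 ± 6.62 TPM). Scd1, the isoform that dominates in liver, had 1, 0 and 0 counts, so it was not detectable at this depth in replicates 2 and 3. A count of 0 allows up to 0.317 TPM in replicate 2 and up to 0.415 TPM in replicate 3, as far as counting error on the strand that was counted goes. Elovl5, an elongase of polyunsaturated fatty acids, had 198, 318 and 51 counts (28.6 ± 18.2 TPM). Elovl1, which elongates saturated very long chains, stood at 11.7 ± 8.94 TPM, and Elovl6, which makes stearate from palmitate, at 2.33 ± 1.29 TPM.

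By role, the SREBP regulators had the highest median of mean levels, at 11.6 TPM, followed by fatty acid synthesis at 10.8, the mevalonate pathway at 4.92 and squalene to cholesterol at 3.999 TPM. This order was not firm. Without genes with exon overlap, the median of the 3 remaining regulators lay below that of the 6 remaining fatty acid genes. These medians were −1.03 and −0.53 relative to the median of all tested genes (log2 scale). In replicate 3 the mevalonate median of 1.71 TPM lay below the 2.11 TPM of squalene to cholesterol. Within a role the genes differed more than the medians did: the mevalonate genes ran from 0.863 to 99.8 TPM and the fatty acid genes from 0.0366 to 46.8 TPM. The order of the 30 genes was similar between libraries, with a Spearman correlation across genes of 0.978 for replicates 1 and 2, 0.919 for 1 and 3, and 0.888 for 2 and 3. Genes are not independent replicates, and the libraries share gene lengths and annotation. Of the 29 pairs of neighbours in the order of mean levels, 8 kept their order in all 3 libraries. Only 2 gaps exceeded the larger SD of the pair, that between Mvd and Acly at the top and that between Idi1 and Scd1 at the bottom. The order between them is therefore loose, apart from the first 3 places, Mvd, Acly and Srebf2, which were the same in every library. Elovl5, next by its mean, ranked below Fdft1 and Srebf1 in replicate 3.

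Partner genes were set against each other within each library, to ask which of 2 related enzymes or regulators was higher. With 3 libraries the exact two-sided sign-flip test cannot go below p = 0.25, and each pair described here gave that value. No count over all planned pairs is given. Intervals below are 95% exact binomial intervals of the ratio of summed counts per base and cover counting error only.

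Srebf2 exceeded Srebf1 by a log2 ratio of 0.92 ± 0.48 (SD, n = 3 libraries), and the counts per base stood at 2.09 to 1 (interval 1.89 to 2.32). The ratio ran from 0.47 in replicate 3 to 1.42 in replicate 2. Insig1 exceeded Insig2 by 0.55 ± 0.30, a ratio per base of 1.59 (interval 1.22 to 2.08). Scd2 exceeded Scd1 in every library, with 304 counts against 1, a ratio per base of 269.6 (interval 48.03 to 10680).

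Among the elongases, Elovl5 exceeded Elovl6 by a log2 ratio of 3.47 ± 0.22, and Elovl1 lay below Elovl5 by −1.34 ± 0.22. These 2 ratios had the smallest spread between libraries of those plotted. Acaca exceeded Acacb, the mitochondrial carboxylase that restrains fatty acid oxidation and had 9, 10 and 8 counts, by 1.22 ± 0.72. Fdft1 exceeded Fdps by 3.76 ± 0.36, with lengths of 2860 and 4208 exonic bases. Their longest transcripts have 3698 and 1382 bases, so this ratio depends on the length used. The part in this ratio of the Ctsb overlap and of the copies of both genes was not tested.

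**Figure D2:**
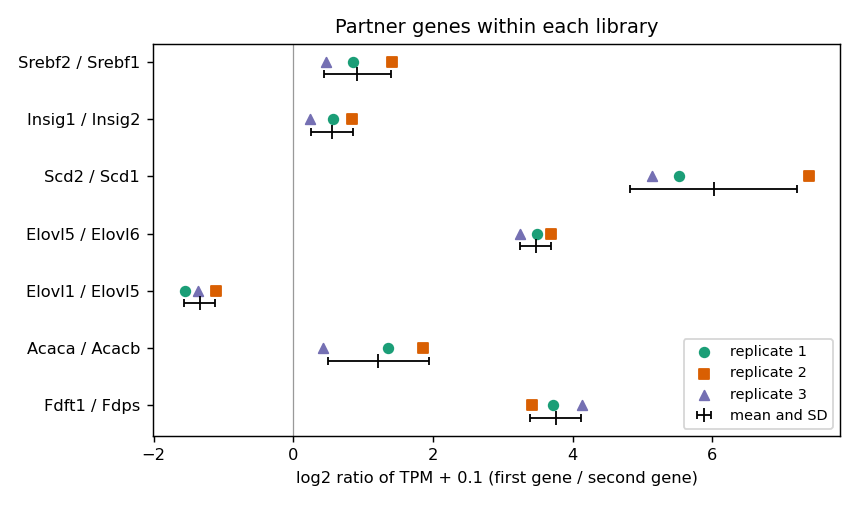
Log2 ratio of TPM + 0.1 of the first to the second gene of 7 pairs; each symbol is 1 library, and the black bar gives the mean and SD over the 3 libraries. In each pair all symbols lie on 1 side of 0.

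The next question was which genes differed between the libraries by more than counting error. In TPM, 27 of the 30 genes were highest in replicate 2 and lowest in replicate 3, and so were 46.2% of the 19958 genes with a count. Among the 25 of the 30 that passed the filter on low counts it was 23, where 66.7% of 10662 tested genes had this order. TPM and raw shares move with the composition of a library, so the test used TMM library sizes, in which a trimmed mean of the log ratios between libraries sets the scale. A gene such as Srebf1 can then be lowest in replicate 3 in TPM and highest there in the test's units. Pmvk, Idi1, Nsdhl, Hsd17b7 and Scd1 did not pass the filter and were not tested.

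The test called 12 of the 25 genes at an adjusted p under 0.05 (edgeR likelihood-ratio test against counting error), or 48.0%, where 63.1% of all tested genes were called. The difference between these shares was not tested, and without the filter on low counts 15 of 30 genes were called, where 44.1% of 19958 genes were. Of the 12, 9 were lowest in replicate 3 (28.2% of all tested genes were called in this way) and 3 were highest there (31.8%). Called genes lowest in replicate 3 were Sc5d, Elovl1, Hmgcs1, Cyp51, Scd2, Elovl5, Msmo1, Scap and Srebf2. The 3 highest in replicate 3 were Mvd, Fdft1 and Srebf1. All 10 T cell markers were called and lowest in replicate 3 too, while Cd79a and Csf1r were called and highest there, with summed B cell marker levels of 33.5 to 49.6 TPM and summed myeloid marker levels of 67.96 to 96.9 TPM. The part of these cell types in the result was not tested. Without replicate 3 the test called 3 of 28 genes, Srebf2, Scap and Elovl1, each lower in replicate 1 than in replicate 2, where 28.5% of 11756 genes were called. The other calls, those of Mvd and Fdft1 included, were lost without this library.

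By role, the test called 2 of 4 tested mevalonate genes, 4 of 9 from squalene to cholesterol, 3 of 5 regulators and 3 of 7 in fatty acid synthesis. Over all tested genes the share was 63.1%, so no role stood above the table. From here, intervals belong to the ratio of replicate 3 to replicate 2, and adjusted p-values to all 3 libraries at once. Sc5d had the lowest ratio of the tested genes: its CPM (counts scaled to a common TMM library size) were 19.6, 23.4 and 8.16 in replicates 1, 2 and 3, a log2 ratio of replicate 3 to replicate 2 of −1.54 (95% exact interval −2.42 to −0.76, edgeR adjusted p = 0.00012). Elovl1 followed at −1.38 (interval −2.26 to −0.60), then Hmgcs1 at −1.30 (interval −2.12 to −0.56). Elovl5, with more counts, gave −1.09 (interval −1.55 to −0.66, edgeR adjusted p = 9.17e-07). Scd2 and Msmo1 had ratios of −1.12 and −1.11. The calls of Hmgcs1, Cyp51, Scd2 and Msmo1 ended when TMM was estimated on genes with no other-strand neighbour (edgeR adjusted p = 0.0724, 0.252, 0.0677 and 0.144), and those of Scd2 and Msmo1 also with TMM within the locus class.

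In the other direction, Fdft1 had 19.7 CPM in replicate 2 and 48.8 CPM in replicate 3, a log2 ratio of 1.31 (interval 0.89 to 1.73, edgeR adjusted p = 1.37e-08). With TMM within the locus class its ratio was 0.29 and the call was lost (edgeR adjusted p = 0.409). Mvd had 81.2, 69.4 and 157.9 CPM and a log2 ratio of 1.19 (interval 0.96 to 1.41, edgeR adjusted p = 1.26e-23). Srebf1 gave 0.56 (interval 0.25 to 0.87). On this scale, replicate 3 was the highest library for all 3, and replicate 1 lay nearer to replicate 2.

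Of the 13 genes not called, the most deeply counted were Acly and Fasn. Acly gave −0.27 (interval −0.51 to −0.04, edgeR adjusted p = 0.0664) and Fasn −0.10 (interval −0.39 to 0.19, edgeR adjusted p = 0.704). With library totals both were called, lowest in replicate 3, and Acly also without the filter on low counts. Sqle, at 0.47 (interval 0.00181 to 0.92, edgeR adjusted p = 0.0765), lay near the threshold, and 3 of 6 alternative fits over all libraries called it in this direction. The counts of Mvk, Fdps, Tm7sf2, Insig2, Dhcr7, Lss, Elovl6, Acaca, Insig1 and Ebp were small, and their intervals all included 0. Of these, Lss and Elovl6 were called, lowest in replicate 3, with TMM within the locus class and with library totals, and Ebp, Insig1 and Acaca with library totals.

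The ratio of the replicates also followed the class of the locus over the whole table. The median log2 ratio of replicate 3 to replicate 2 was 1.01 over 4418 tested genes whose exons overlap exons of the other strand, −0.29 over 3644 with an opposite-strand gene within 5 kb, and −0.46 over 2600 with none. Features with at least 90% of their exonic bases opposite 1 gene had a median of 1.66. Of the 30 genes, 7 fell in the first class, 12 in the second and 11 in the third. The test called 5 of 7 in the first (74.8% of all tested genes of that class), 3 of 10 tested in the second (55.2%) and 4 of 8 tested in the third (54.1%). Within the first class, Elovl1, Cyp51, Scap, Elovl6 and Lss lay below −0.5, while Fdft1 and Srebf1 lay above 0.5. The shared bases made up 26.8% of the exonic length of Fdft1 and 13.2% of that of Scap, 3.76% for Cyp51, 3.53% for Lss, 1.94% for Elovl1, 1.93% for Srebf1 and 0.529% for Elovl6. Fdft1 had both the largest share and the highest ratio of the 7, while Scap, with the next largest share, had a ratio of −0.80. Srebf1 and Elovl1, with nearly equal shares, had ratios of 0.56 and −1.38. The part of the overlap in these ratios was not tested. Mvd, in the second class, was above its class median with no overlapping exon.

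**Figure D3:**
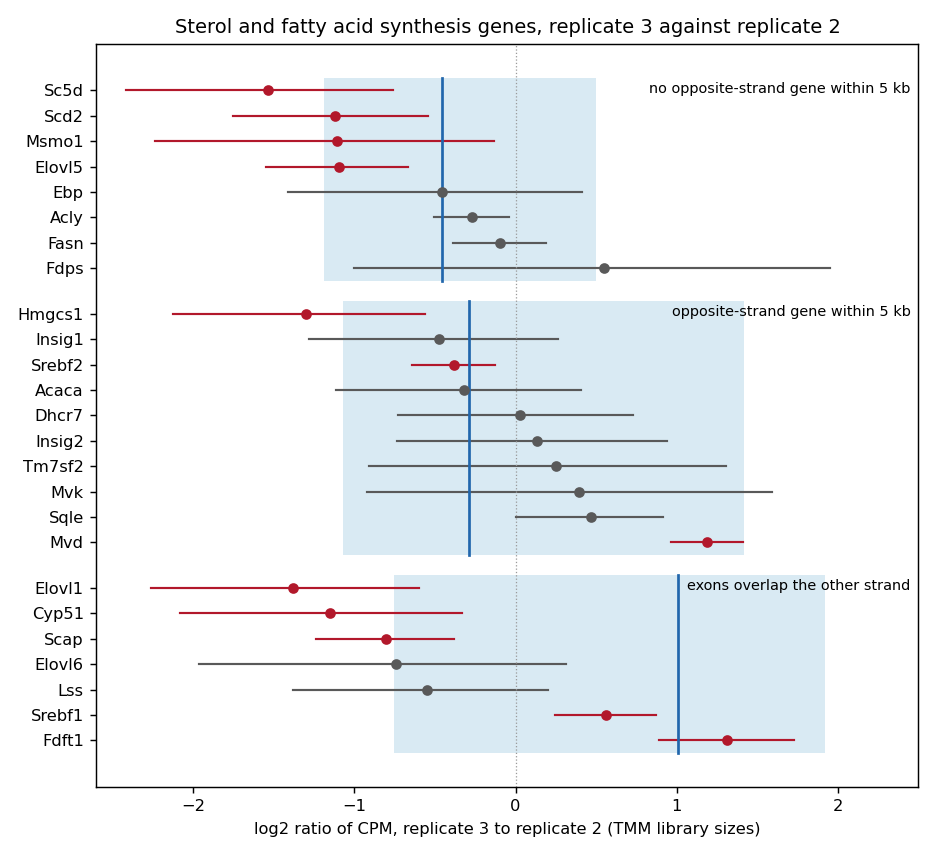
Log2 ratio of CPM of replicate 3 to replicate 2 for the 25 tested genes, with 95% exact intervals, by class of locus; red marks genes called by the test and grey the others. Blue lines are class medians over all tested genes (−0.46, −0.29 and 1.01 from top to bottom) and bands span their 10th to 90th percentiles.

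The calls moved with the scaling. Over all tested genes the median ratio of replicate 3 to replicate 2 was −0.11 with TMM, 0.32 with TMM estimated on the third class alone, and −0.87 with library totals. The number of genes called among the 25 was 8 and 18 under the last 2, with 52.9% and 82.9% called over the table. In 5 genes the call and its direction held in all 7 fits with 3 libraries: Mvd, Sc5d, Scap, Elovl1 and Elovl5. Scap and Elovl1 lost the call without replicate 2, and the other 3 without replicate 3. The ratio of Mvd ran from 0.42 to 1.62 over these fits and that of Elovl5 from −1.86 to −0.66. Srebf2 gave 0.049 under TMM from the third class, and Srebf1 gave −0.20 under library totals, so neither has a direction that holds across scalings.

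Other genes of sterol synthesis and regulation, 19 in a list, had a median of 12.02 TPM. Of these, 17 reached 1 TPM in every library, and 10 of 16 tested were called, 9 of them lowest in replicate 3 and 1 highest, beside 63.1%, 28.2% and 31.8% of all tested genes for these 3 calls. The highest were Lbr, a nuclear envelope protein with sterol reductase activity, at 45.3 ± 23.7 TPM and with exon overlap, Rnf139, a ubiquitin ligase of the endoplasmic reticulum, at 25.6 ± 6.03, Sp1 at 22.2 ± 14.1, and Ggps1, the geranylgeranyl diphosphate synthase with exon overlap, at 21.4 ± 12.5 TPM. Idi2, the paralog of Idi1, had 0 counts.

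Of 20 genes of sterol uptake, transport, storage and efflux, 15 reached 1 TPM in every library. The test called 8 of 15 (63.1% over the table), 6 lowest (28.2%) and 1 highest (31.8%) in replicate 3. Npc2, which moves cholesterol out of lysosomes, led at 120.9, 199.1 and 49.04 TPM in replicates 1, 2 and 3, followed by the lysosomal lipase gene Lipa at 28.5 ± 19.8, Npc1 at 25.8 ± 4.48 with exon overlap, and Nr1h2, which encodes the sterol-sensing receptor LXR beta, at 25.6 ± 9.59 TPM. Ch25h and Cyp27a1, which make oxysterols, had 0 counts.

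Of 29 other genes of fatty acid synthesis and activation, 14 reached 1 TPM in every library and 9 had under 3 counts in all. The test called 3 of 12 (63.1% over the table), 2 lowest (28.2%) and 1 highest (31.8%) in replicate 3. Acsl5, an acyl-CoA synthetase, stood at 40.8 ± 20.05 TPM, Hacd4 at 40.7 ± 10.7 with exon overlap, Tecr at 36.8 ± 20.8 and Hacd3 at 30.3 ± 11.7 TPM. The last 3 act in the elongation cycle that the Elovl enzymes start. Elovl2, Elovl3, Elovl4, Fads3, Hacd1, Acsl6 and Me1 had 0 counts and Fads2 and Thrsp 1 count each. The list's median, 2.24 TPM, was the lowest of the lists plotted.

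**Figure D4:**
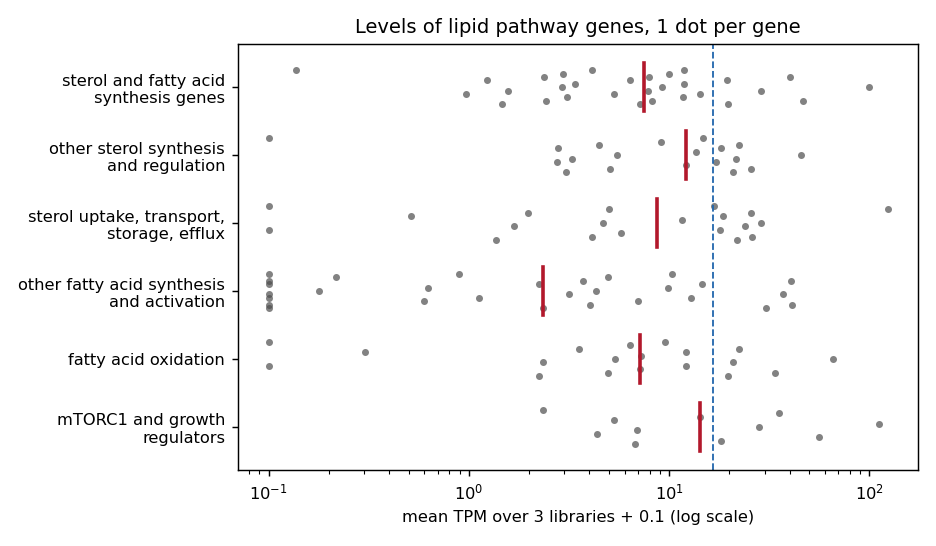
Mean level over 3 libraries of each gene, as TPM + 0.1 on a log axis, for the 30 genes and 5 other lists. The lists hold other lipid pathway genes and, in the last, mTORC1 and growth regulators. Red bars are list medians and the dashed line is the median of all tested genes, 16.5 TPM. All 6 medians lie to the left of the dashed line, and genes at 0 counts sit at 0.1. The dots include genes that did not pass the filter on low counts, which the dashed line leaves out.

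Upstream sequences were examined because SREBP factors act together with NF-Y and Sp1 at many of their target promoters. RefSeq windows (GRCm38.p6) were matched for 25 of the 30 genes, as 34 windows, and not for Fdft1, Scd2, Sqle, Fdps and Scd1, and the 250 bases before each start were searched on both strands, with overlapping matches allowed. The letters TCACNCCAC, a core of the sterol regulatory element, were found in 1 window, that of Hmgcs1, against 1.05% of all 32851 windows. CCAAT, the NF-Y box, was found in 22 of the 34 windows (64.7%) against 33.8% of all, and GGGCGG, the Sp1 box, in 24 (70.6%) against 32.7%. Windows of 1 gene can overlap, and no test was made. A match is a description of the letters and not a binding site. The 4 highest genes without exon overlap are shown, with Hmgcs1 added after its match was seen, without bases that the annotation places in an exon. They run 5′ to 3′ on the gene's strand, and capitals mark the matches.
Mvd, chr8:122443423-122443672, minus strand: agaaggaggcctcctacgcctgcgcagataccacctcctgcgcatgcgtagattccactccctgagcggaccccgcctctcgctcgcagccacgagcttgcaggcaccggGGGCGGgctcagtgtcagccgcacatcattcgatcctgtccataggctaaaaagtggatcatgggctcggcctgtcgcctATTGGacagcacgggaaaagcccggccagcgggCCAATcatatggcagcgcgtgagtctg
Acly, chr11:100528001-100528250, minus strand: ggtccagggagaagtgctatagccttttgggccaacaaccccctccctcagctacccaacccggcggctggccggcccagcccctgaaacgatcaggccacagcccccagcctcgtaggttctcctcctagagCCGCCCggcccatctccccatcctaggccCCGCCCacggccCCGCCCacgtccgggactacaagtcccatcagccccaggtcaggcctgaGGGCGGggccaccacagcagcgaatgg
Srebf2, chr15:82147019-82147265, plus strand: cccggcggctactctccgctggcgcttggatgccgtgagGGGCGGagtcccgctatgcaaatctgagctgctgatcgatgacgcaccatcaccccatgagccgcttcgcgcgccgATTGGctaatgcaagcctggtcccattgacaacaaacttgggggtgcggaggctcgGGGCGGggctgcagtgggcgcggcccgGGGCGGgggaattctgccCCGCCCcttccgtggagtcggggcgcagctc
Elovl5, chr9:77917115-77917363, plus strand: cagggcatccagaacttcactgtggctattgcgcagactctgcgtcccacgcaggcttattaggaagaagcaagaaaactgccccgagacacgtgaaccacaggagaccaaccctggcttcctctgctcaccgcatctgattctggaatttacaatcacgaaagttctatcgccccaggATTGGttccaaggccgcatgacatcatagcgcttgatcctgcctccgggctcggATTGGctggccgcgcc
Hmgcs1, chr13:119690101-119690350, plus strand: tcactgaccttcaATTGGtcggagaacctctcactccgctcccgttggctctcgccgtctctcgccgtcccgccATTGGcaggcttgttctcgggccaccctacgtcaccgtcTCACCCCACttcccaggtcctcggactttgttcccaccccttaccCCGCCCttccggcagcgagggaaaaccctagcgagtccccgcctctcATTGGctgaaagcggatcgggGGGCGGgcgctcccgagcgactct
The window of Mvd holds 2 NF-Y boxes and 1 Sp1 box, that of Srebf2 1 and 4, that of Elovl5 2 and 0, that of Acly 0 and 4, and that of Hmgcs1 3 and 2. Any relation of these matches to the differences between the libraries was not tested.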

How the data were processed

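The values deposited by the authors are raw fragment counts for each gene, written by featureCounts 1.4.6-p4 with strand setting 1 and GENCODE M13, per the file headers. Per the labels, reads were placed on mm10. For the kit and the aligner's version, nothing is given in the sources used here. GENCODE M21 named 50376 of 50600 identifiers.

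TPM came from counts and the deposited exonic length, in which all exons of a gene are joined. For some genes it exceeds the longest transcript (10787 against 4667 bases for Lss, 6144 against 2044 for Msmo1). For others it is shorter (2860 against 3698 for Fdft1), so levels and ranks depend on the length used. The library term was tested with an edgeR 4.0.16 likelihood-ratio test (TMM sizes, dispersion 0, 2 degrees of freedom) over 10662 genes kept by filterByExpr, with Benjamini-Hochberg adjustment over all of them. With 1 group the quasi-likelihood test has no residual degrees of freedom. PCR copies were not told apart, so intervals cover counting error only. On counts simulated for this test over 10662 genes, 44% of 100 genes changed 1.5-fold, 92% of 100 changed 3-fold and 0.0382% of unchanged genes were called. The simulated counts held counting error only, and the test was given the library sizes that made them. These shares therefore do not cover errors of scaling or other spread between real libraries.

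Loci were classed from the deposited coordinates with bedtools 2.31.1, and copies found with BLAST 2.17.0 in GENCODE M21 transcripts. All 30 genes are named; of other lists, the 4 highest, those under 3 counts and pair partners may be. A further planned gene pair is not reported here, so the pairs shown are not all those planned. Genes, lists and tests were chosen with earlier results of these data known. Alternatives changed the scaling (with size factors of DESeq2 1.42.0, among others), filter, test, pseudocount, level threshold, overlap and replicates, and scaling within the locus class was added after the data were seen.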

Additional observations from a re-analysis of the deposited data

How the results depend on the processing

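No paired analysis was possible because the libraries form 1 group. The count of genes that differed between libraries, 12, ranged from 3 (without replicate 3) to 13 when each replicate was left out, and from 8 to 18 over the other alternatives. Reversed directions of the replicate 3 to replicate 2 ratio were −0.20 (library totals) and −0.46 (TMM within the locus class) for Srebf1, and 0.049 (TMM on genes far from the other strand's genes) for Srebf2. The median ratio over the 25 tested genes of the 30, −0.38, became −0.28 with DESeq2 size factors, −0.15 with TMM within the locus class and 0.049 with TMM on genes far from the other strand's genes. Role medians minus the median of all tested genes, on the log2 scale, moved without length scaling from −2.05 to −2.63 (mevalonate), from −2.05 to −1.55 (squalene to cholesterol) and from −0.59 to 0.38 (SREBP regulators). Without exon-overlap genes the last became −1.03, a median over 3 regulators, below fatty acid synthesis at −0.53 over 6 genes.

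Pair ratios are given here as mean log2 ratios over the 3 libraries. Those of Scd2 and Scd1, Elovl5 and Elovl6, and Fdft1 and Fdps were 6.02, 3.47 and 3.76 with the pseudocount of 0.1 TPM. With a pseudocount of 1 TPM they fell to 3.18, 2.99 and 3.12. Without length scaling they became 7.25, 2.66 and 3.26, that of Elovl1 and Elovl5 −1.72, and that of Acaca and Acacb 2.14. At 5 TPM in place of 1, the lists kept 9 (other sterol synthesis), 5 (other fatty acid synthesis), 7 (oxidation) and 6 (mTORC1 and growth) genes. All 7 genes of the last list that have no exon overlap reached 1 TPM in every library. The causes of the changes under these alternatives were not tested. In replicate 3, 4 of the 30 genes had under 3 counts, which limits what can be said of it.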

Other observations

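Fatty acid oxidation breaks down what the synthesis route builds. Of 19 listed genes of oxidation, 14 reached 1 TPM in every library, with a median of 7.08 TPM, beside 7.36 TPM for the 30 genes of synthesis. Acadvl, the very long chain acyl-CoA dehydrogenase with exon overlap, stood at 65.6 ± 11.4 TPM (SD, n = 3), Acaa2 at 33.6 ± 19.1, Cpt1a, the gate of mitochondrial import, at 22.3 ± 13.1, and Acadl at 20.7 ± 13.1 TPM. Ppara and Ppargc1a, which drive this program in liver and muscle, had 0 counts in all 3 libraries. The between-library test called 11 of 14 (63.1% of all tested genes), of which 9 were lowest (28.2%) and 1 highest (31.8%) in replicate 3.

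All 11 genes of the mTORC1 and growth list, which lies upstream of SREBP, reached 1 TPM in every library, with a median of 14.1 TPM. Tsc2, an inhibitor of the pathway, was the highest at 111 ± 22.6 TPM with 1088, 1180 and 1233 counts and exon overlap. Prkag1, an AMPK subunit gene with exon overlap, stood at 55.7 ± 27.1, Akt1 at 35.1 ± 19.3 and Myc at 27.8 ± 11.8 TPM. Of the 11, 8 were called (63.1% of all tested genes), 5 lowest (28.2%) and 1 highest (31.8%) in replicate 3.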
